A study of Mus musculus with 12 samples.

Results

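Microglia and macrophage transcripts were examined in 12 expression arrays of cultured mouse cerebellar granule cells. The members were 30 genes that mark microglia, the resident macrophages of the brain, or macrophages in general. They were taken from a list of symbols, each read from the probe set with the highest mean over the 12 arrays among those annotated to exactly that 1 symbol. All 30 had such a probe set, of 18193 genes with one in all, and 9 had several. The cells came from lethargic mice on the 129/SvJ background, in which the gene of the calcium channel β4 subunit, Cacnb4, is mutated. All cultures were started at postnatal day 7 and received lentivirus for 12 hours right after plating. The antimitotic drug Ara-C was added 24 hours after plating. All were lysed after 9 days in vitro in medium with 10% serum and 5 mM KCl. The virus carried eGFP in the control group and the splice variant β4a, β4b or β4e in the others, with 3 arrays per group, and every group held the replicate numbers 1, 2 and 3. The labels give neither the promoter in the virus nor the share of cells that took it up, and they do not say whether arrays of 1 number shared animals or a day of culture. P-values therefore measure the spread between these arrays, which may be technical.

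Microglia enter the brain early in development and live on colony-stimulating factor 1, which they sense through Csf1r. They survey the tissue with purine and fractalkine receptors, and bind debris and antibody with receptors that signal through short adaptors carrying an immunoreceptor tyrosine-based activation motif (ITAM), and they make most of the C1q of the brain. In dissociated cerebellar cultures they are known as a minor non-neuronal population beside astrocytes. The arrays measured RNA of whole cultures, so fewer cells of a type and less RNA per cell cannot be told apart.

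Values are log2 GCRMA intensities, which the authors had normalized between arrays, and 1 unit is a doubling of intensity. The test took in probe sets above 4 in 3 or more of the 12 arrays, whatever their group, which held for 23044 probe sets and for 24 of the 30 members. Replicate number was the main source of variation in the whole table: all 18 pairs of arrays with the same number deviated together from their group means (r from 0.699 to 0.884 across probe sets). Of the granule cell markers, the GABA receptor subunit Gabra6 had a mean of 13.82.

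The members fell into those with clear signal and those near the background of the array. In all 12 arrays 20 members stood above 4, 13 had a mean above 6, and 5 exceeded 4 in no array. Among the receptors that define resting microglia, P2ry12, a receptor for ADP, ran from 2.30 to 2.67 and Tmem119, a surface protein of microglia, from 2.90 to 3.10, so that neither was above background in any of the groups. Cx3cr1, the fractalkine receptor, was dim at 4.11 to 5.46, and Csf1r ran from 5.79 to 7.25. A second Cx3cr1 probe set, which did not pass the filter, lay between 2.75 and 3.09. The transcription factors Spi1 (PU.1), which directs the myeloid lineage, and Irf8, its partner, stood at 3.70 to 4.15 and 3.26 to 3.53. Itgam (CD11b), a chain of the complement receptor CR3, lay between 2.56 and 3.44, and Aif1 (Iba1), an actin-bundling protein, between 3.28 and 4.14, above 4 in 2 arrays. Trem2, the lipid-sensing receptor that signals through Tyrobp, lay between 3.65 and 4.17. H2-Aa, an MHC class II chain, lay between 2.89 and 3.23, while its chaperone Cd74 lay between 4.40 and 4.84.

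Of 12 further microglia-enriched genes with a probe set, 10 also had a mean below 4, among them Gpr34, Siglech, Sall1, P2ry13 and Fcrls. The other two were Rgs10, a regulator of G-protein signalling, with a mean of 6.73, and Selplg, a selectin ligand, with 4.16. None of the 11 lymphocyte markers had a mean above 4, and of 12 neutrophil and mast cell markers only Kit (6.33) and Camp (4.09) did. By the probe sets read here, P2ry12, Tmem119, Itgam, Gpr34, Siglech, Sall1, P2ry13 and Fcrls were thus at background, while Csf1r, Cx3cr1, Rgs10 and genes such as Tyrobp were not. No narrower cell type name than microglia or macrophage was given to the source of these transcripts. Whether dim values reflect low transcript or poor probes was not tested.

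**Figure D1:**
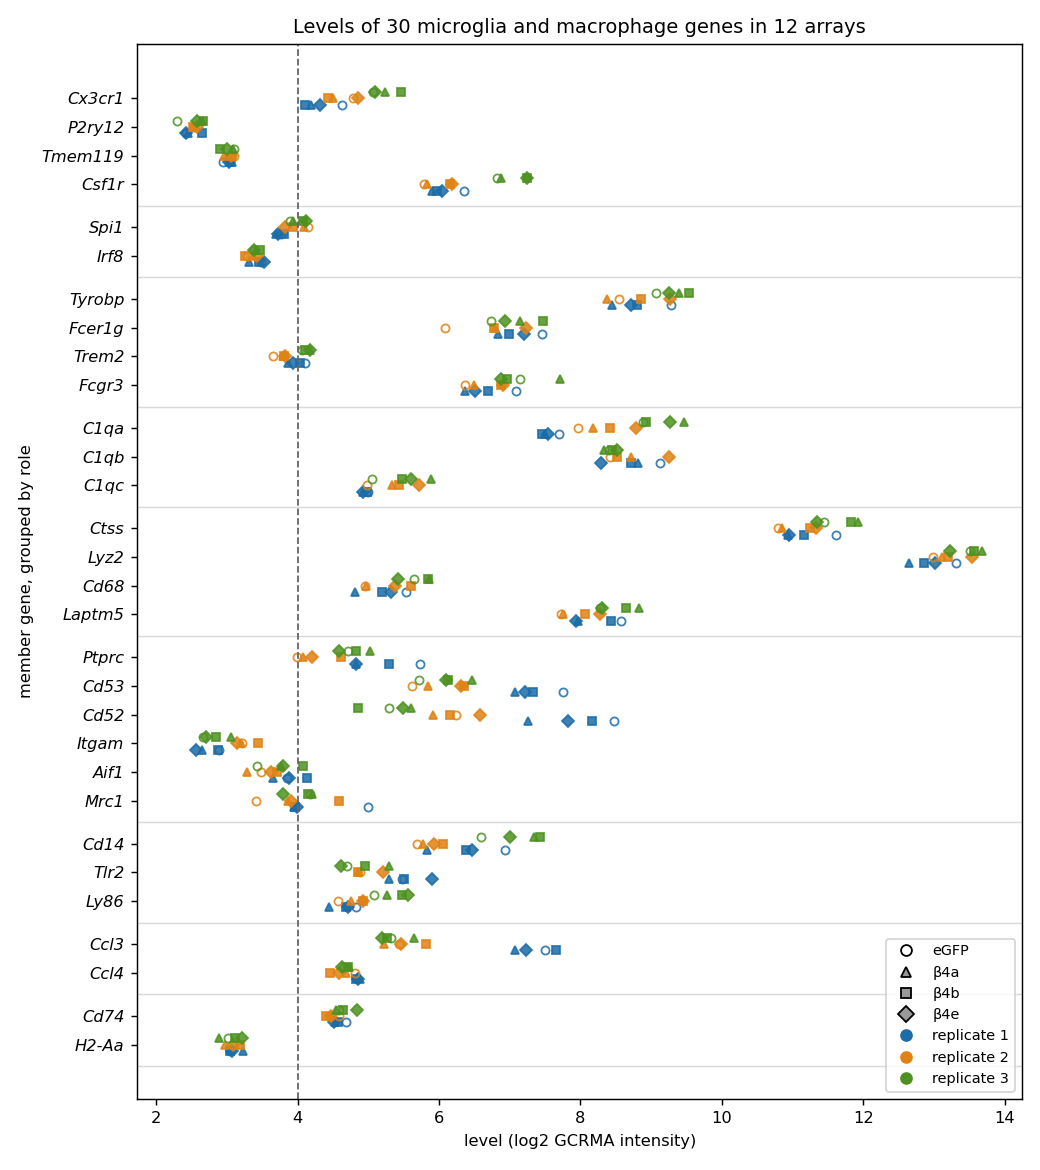
Level of each of the 30 members (log2 GCRMA intensity, horizontal axis) in the 12 arrays, grouped by role, with colour for the replicate number and shape for the virus (open circle, eGFP). The dashed line marks 4, the level used as the filter: P2ry12 and Tmem119 lie left of it in every array, while Lyz2 lies between 12.64 and 13.68.

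RefSeq held a promoter for 21 of the 30 members (build GRCm38.p6). The 250 bases before the transcription start were searched for AGGAAGT, a core bound by PU.1 and related ETS factors, on both strands, a search added after seeing the data. The longer form GAGGAAGT, which contains it, was searched in the same way. AGGAAGT or its reverse complement was present for 6 of 21 members (28.6%: C1qb, C1qc, Lyz2, Mrc1, P2ry12 and Ptprc), against 8.8% of 27025 genes with a promoter in the table. The longer form was present for 1 of 21 (4.76%, C1qc), against 2.79% of genes. These are matches of letters and not shown binding sites. A match did not go with 1 direction between replicate numbers: Ptprc, which holds one, was highest in replicate 1, and C1qc, which holds one, in replicate 3. The upstream windows of 5 members are given as examples, 3 with a match (Lyz2 and the C1q chains C1qb and C1qc) and 2 without (Cd53 and Ccl3). Bases run 5′ to 3′ along the gene, and capitals mark the match, which in all 3 was the reverse complement ACTTCCT. It began 100 bases before the start in Lyz2, 53 in C1qb and 195 in C1qc.
Lyz2 (chr10:117282273-117282522, - strand): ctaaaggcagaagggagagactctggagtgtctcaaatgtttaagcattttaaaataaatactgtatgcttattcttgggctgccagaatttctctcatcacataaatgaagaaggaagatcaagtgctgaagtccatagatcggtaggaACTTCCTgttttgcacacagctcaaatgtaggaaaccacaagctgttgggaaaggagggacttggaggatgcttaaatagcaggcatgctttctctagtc
C1qb (chr4:136886201-136886450, - strand): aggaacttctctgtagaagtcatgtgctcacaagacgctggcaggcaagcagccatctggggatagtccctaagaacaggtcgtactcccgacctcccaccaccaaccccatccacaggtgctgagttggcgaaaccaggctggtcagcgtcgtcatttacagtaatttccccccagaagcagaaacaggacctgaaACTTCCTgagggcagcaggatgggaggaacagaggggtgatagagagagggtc
C1qc (chr4:136892915-136893164, - strand): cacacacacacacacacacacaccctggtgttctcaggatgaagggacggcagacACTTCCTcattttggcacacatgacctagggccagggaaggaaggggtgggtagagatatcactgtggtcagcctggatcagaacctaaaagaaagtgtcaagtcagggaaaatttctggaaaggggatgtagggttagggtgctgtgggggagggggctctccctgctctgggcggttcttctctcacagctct
Cd53 (chr3:106790150-106790399, - strand): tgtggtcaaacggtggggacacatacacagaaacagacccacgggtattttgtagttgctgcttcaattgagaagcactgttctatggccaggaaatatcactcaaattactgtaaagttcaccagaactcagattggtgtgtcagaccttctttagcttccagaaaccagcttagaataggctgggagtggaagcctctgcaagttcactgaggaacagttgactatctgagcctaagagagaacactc
Ccl3 (chr11:83649379-83649628, - strand): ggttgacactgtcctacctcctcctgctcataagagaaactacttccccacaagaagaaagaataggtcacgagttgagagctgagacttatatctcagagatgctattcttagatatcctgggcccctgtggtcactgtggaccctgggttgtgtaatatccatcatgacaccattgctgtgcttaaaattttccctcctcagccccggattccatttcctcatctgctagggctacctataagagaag

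The first comparison asked whether putting a β4 variant into lethargic granule cell cultures was followed by a change in these genes. No member passed for any variant. With limma and Benjamini-Hochberg adjustment over 23044 probe sets, 0 of 24 tested members were called for β4a, β4b or β4e against eGFP (background 0% of probe sets in each), and 0 were at an unadjusted p under 0.05. Of all 23044 probe sets, 363, 607 and 83 were at that unadjusted level. With replicate number blocked in the model, 0 of 24 were called as well, beside 0.013% of all probe sets for β4a, 0.013% for β4b, 0% for β4e and 0.0217% for the mean of the 3 variants. At an unadjusted p under 0.05 the block gave 0, 0 and 1 members, beside 15.3%, 19.3% and 5.54% of all probe sets. Testing each probe set with its own variance also called 0 members. The differences of the 24 members from eGFP ran from -0.41 to 0.37 for β4a, from -0.28 to 0.32 for β4b and from -0.29 to 0.41 for β4e (log2). Their medians were -0.04, 0.09 and -0.01, beside 0.02, 0.03 and 0.01 over all probe sets tested. The 95% interval of a member's difference reached from 0.29 to 2.25 on either side of the estimate without the block (median 0.72). With the block it reached from 0.22 to 0.72 (median 0.47). Changes of these sizes could not be told from none.

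C1qc, a chain of C1q, which starts the classical complement pathway, had the smallest p of the members for each variant. Its mean ± SD (n = 3) was 5.01 ± 0.03 in the eGFP arrays, against 5.38 ± 0.49, 5.30 ± 0.28 and 5.42 ± 0.43 for β4a, β4b and β4e. Per array, in the order eGFP, β4a, β4b and β4e that is used for every gene below, the values were 5.00, 4.93, 4.98 and 4.92 in replicate 1, 4.98, 5.33, 5.43 and 5.72 in replicate 2 and 5.05, 5.89, 5.48 and 5.61 in replicate 3. The eGFP arrays differed little from each other. The variant arrays stood above eGFP in replicates 2 and 3 and not in replicate 1. The blocked differences were 0.37 (95% interval -0.02 to 0.76) for β4a, 0.29 (-0.11 to 0.68) for β4b and 0.41 (0.01 to 0.80) for β4e, and none passed (limma adjusted p = 0.348, 0.398 and 0.892 with the block). The variants share the eGFP arrays, so these are not independent.

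No pair of variants differed in a member either. For β4a against β4b, β4a against β4e and β4b against β4e, 0 of 24 members were called by limma (background 0% each), with or without the block, and 0 had an unadjusted p under 0.05. Of all 23044 probe sets, 619, 1458 and 1638 were at that level with the block, and 56, 153 and 175 without it. The widest such difference of β4a and β4b was that of Cd68, a lysosomal glycoprotein of phagocytes, at -0.33. Between β4b and β4e it was that of Ptprc (CD45), the leukocyte phosphatase, at 0.37.

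Within a replicate number the members nonetheless tended to 1 side of eGFP, below it in replicate 1 and above it in replicates 2 and 3. The exception was β4a in replicate 2. In replicate 1 the counts of members below their eGFP array were 26, 24 and 24 of 30 (β4a, β4b, β4e), beside 49.5%, 45.4% and 48.9% of all tested probe sets. The median differences of the 30 members were -0.40, -0.19 and -0.26. In replicate 2, 18, 21 and 25 of 30 stood above eGFP (medians 0.03, 0.26 and 0.34), beside 55.6%, 55.7% and 51.4% of all tested probe sets. The medians over all tested probe sets were 0.03, 0.04 and 0.01 there, so the members did not stand apart for β4a. In replicate 3 the counts above eGFP were 26, 25 and 20 (medians 0.32, 0.18 and 0.11), beside 50.4%, 49.5% and 53.0%. All 3 differences within a number rest on the same eGFP array, so their common sign is not 3 observations.

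Put by the eGFP arrays, eGFP was the highest of the 4 arrays of replicate 1 for 21 of 30 members (background 23.3% of tested probe sets). It was the lowest of the 4 and the highest of the 4 in replicate 2 for 16 and 4 members (background 35.1% and 27.6%), and the lowest in replicate 3 for 16 (background 31.3%). For 16 members eGFP was both highest in replicate 1 and lowest in replicate 2, against 5.71% of all tested probe sets, and 9 of these were also lowest in replicate 3 (background 2.79%). After quantile normalization of the values eGFP was the highest of replicate 1 for 21 members (background 23.9%). It was then the lowest of replicate 2 for 16 (background 31.2%) and the lowest of replicate 3 for 14 (background 27.3%). With 1 array of each kind per number, no test of this pattern was possible. Averaging over the numbers, as the comparison of groups does, set these opposite differences against each other. With replicate 1 left out and the block kept, a choice made after seeing the data, 0 of 24 members were called for each variant, with 2, 6 and 7 at an unadjusted p under 0.05 for β4a, β4b and β4e. Over all probe sets 13.8%, 18.4% and 7.78% were at that level.

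**Figure D2:**
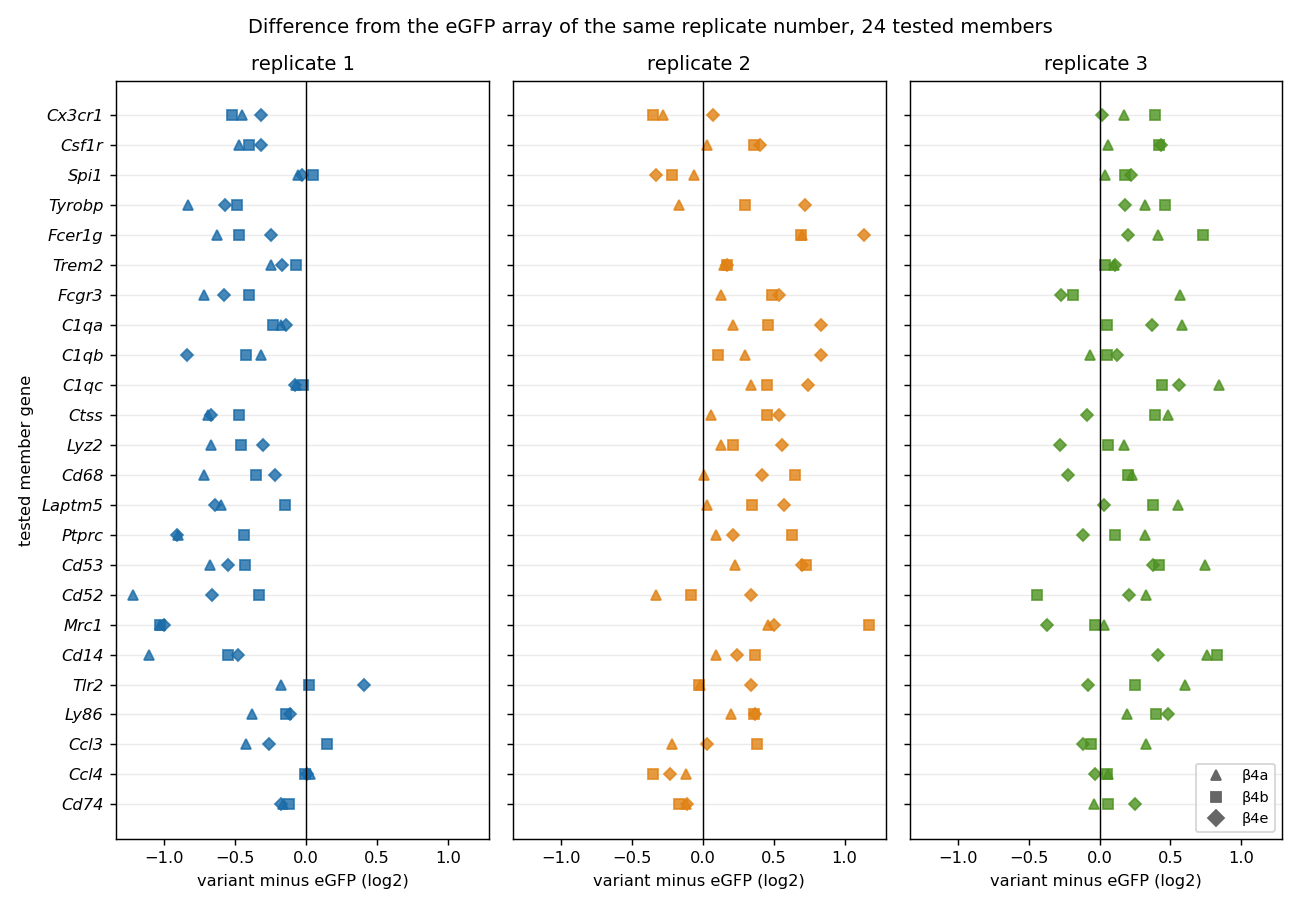
Difference of each variant array from the eGFP array of the same replicate number (log2, horizontal axis) for the 24 tested members, 1 panel per replicate number, with shape for the variant. In replicate 1 most points lie left of 0 (for β4a, 23 of 24), and in replicates 2 and 3 most lie right of it (for β4a, 16 and 22 of 24).

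Of the ITAM adaptors and receptors with a mean above 6, Fcer1g had eGFP highest in replicate 1 and lowest in replicates 2 and 3. Tyrobp and Fcgr3 showed this in part. Tyrobp (DAP12), the adaptor of Trem2, stood at 9.28, 8.45, 8.80 and 8.71 in replicate 1, 8.55, 8.38, 8.85 and 9.26 in replicate 2 and 9.07, 9.39, 9.53 and 9.25 in replicate 3. The mean of the 3 variants differed from eGFP by -0.63, 0.28 and 0.32 in replicates 1 to 3. Fcer1g, the shared γ chain of Fc receptors, stood at 7.46, 6.83, 6.99 and 7.20 in replicate 1, 6.09, 6.79, 6.78 and 7.23 in replicate 2 and 6.73, 7.14, 7.47 and 6.93 in replicate 3. Its eGFP array was the highest of replicate 1 and the lowest of replicates 2 and 3, with mean differences of -0.45, 0.84 and 0.45. Fcgr3, a low-affinity receptor for IgG, stood at 7.09, 6.37, 6.69 and 6.51 in replicate 1, 6.37, 6.50, 6.87 and 6.91 in replicate 2 and 7.14, 7.71, 6.96 and 6.88 in replicate 3. Here the eGFP array of replicate 3 lay within the variant arrays, and the mean differences were -0.57, 0.39 and 0.04. Averaged over the numbers, Tyrobp stood at 8.97 ± 0.38 with eGFP and 8.74 ± 0.57, 9.06 ± 0.41 and 9.07 ± 0.31 with β4a, β4b and β4e, with overlap between all groups.

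Genes of the lysosome and of digestion held some of the clearest signals. Lyz2, lysozyme of macrophages and granulocytes, stood at 13.31, 12.64, 12.86 and 13.01 in replicate 1, 12.98, 13.11, 13.19 and 13.54 in replicate 2 and 13.51, 13.68, 13.57 and 13.23 in replicate 3. Ctss, cathepsin S, a protease of antigen-presenting cells, stood at 11.62, 10.93, 11.16 and 10.95 in replicate 1, 10.79, 10.85, 11.24 and 11.33 in replicate 2 and 11.44, 11.92, 11.83 and 11.35 in replicate 3. Laptm5, a lysosomal membrane protein of blood cells, stood at 8.58, 7.97, 8.43 and 7.94 in replicate 1, 7.72, 7.75, 8.07 and 8.28 in replicate 2 and 8.27, 8.83, 8.65 and 8.31 in replicate 3. For all of these the eGFP array was the highest of replicate 1 and the lowest of replicate 2, with differences of the variant mean of -0.48 and 0.30 for Lyz2, -0.61 and 0.35 for Ctss, and -0.46 and 0.32 for Laptm5. In replicate 3 they were -0.01, 0.26 and 0.32. Cd68 was dimmer, from 4.81 to 5.86, with -0.43, 0.36 and 0.07. The Laptm5 probe set is of the kind that can match related transcripts, and 4 other Laptm5 probe sets had means from 2.73 to 4.87.

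The second comparison set the replicate numbers against each other, with the group as a covariate and 4 arrays per number. A moderated F test called 12 of 24 tested members (limma adjusted p under 0.05), a share of 50.0% beside 65.2% of all probe sets tested. The members thus differed between numbers no more often than other genes. Of the 12, 5 had their highest mean in replicate 1 (Ccl3, Cd52, Cd53, Ptprc and Tlr2), 0 in replicate 2 and 7 in replicate 3 (C1qa, C1qc, Csf1r, Cx3cr1, Cd14, Ly86 and Trem2). Trem2 would not have been tested without its replicate 3 arrays. Of all probe sets tested, 30.5%, 19.2% and 15.5% were called with their highest mean in replicates 1, 2 and 3, so the whole table split in direction too. Replicate 2 minus replicate 1 called 7 of 24 members (background 53.2%), 2 higher (24.2%) and 5 lower (29%). Replicate 3 minus replicate 1 called 11 members (background 48.2%), 7 higher (19.8%) and 4 lower (28.5%). Replicate 3 minus replicate 2 called 7 (background 32.3%), 6 higher (15.7%) and 1 lower (16.7%). By the arrays themselves, all 4 arrays of replicate 2 lay above all 4 of replicate 1 for 3 of 30 members and below them for 7 (background 20.8% and 25.3%). For replicate 3 against replicate 1 these counts were 6 and 5 (18.5% and 24.7%), and against replicate 2 they were 7 and 2 (17.2% and 19.1%). Without eGFP replicate 1 the last limma contrast called 11 members, against 7 with all arrays. Its calls over all probe sets moved too: leaving out each array in turn gave 5275 to 7875 of 23044, against 7454 with all arrays.

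The 5 members highest in replicate 1 were a chemokine, 3 leukocyte surface proteins and a pattern receptor. Ccl3 (MIP-1α), a chemokine of activated myeloid cells, stood at 7.50, 7.08, 7.65 and 7.23 in replicate 1, 5.44, 5.22, 5.82 and 5.47 in replicate 2 and 5.32, 5.65, 5.26 and 5.19 in replicate 3. All 4 arrays of replicate 1 lay above all others. It was 3.68-fold lower in replicate 2 than in replicate 1 (log2 difference -1.88 ± 0.15 SE, limma adjusted p = 1.63e-05) and 4.03-fold lower in replicate 3 (-2.01 ± 0.15, limma adjusted p = 2.03e-05). Ccl4 (MIP-1β), its neighbour in the chemokine family, stayed between 4.46 and 4.88 and was not called in any pair of numbers. Cd52, a small glycoprotein of leukocytes, stood at 8.48, 7.26, 8.16 and 7.82 in replicate 1, 6.24, 5.91, 6.16 and 6.58 in replicate 2 and 5.29, 5.61, 4.85 and 5.49 in replicate 3. No array of 1 number overlapped with another number, and it was 3.27-fold lower in replicate 2 than in replicate 1 (limma adjusted p = 0.000354) and 6.15-fold lower in replicate 3 (limma adjusted p = 4.84e-05). The difference of -0.91 between replicates 3 and 2 passed as well (limma adjusted p = 0.0194), but its call ended when any of 4 arrays was left out (eGFP replicate 3, β4b replicate 2, β4b replicate 3 or β4e replicate 2; limma adjusted p from 0.056 to 0.0698).

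Cd53, a tetraspanin of leukocytes, stood at 7.76, 7.08, 7.33 and 7.21 in replicate 1, 5.62, 5.85, 6.35 and 6.31 in replicate 2 and 5.72, 6.46, 6.13 and 6.10 in replicate 3. Replicate 1 was again above every other array, and replicate 2 was 2.49-fold lower (log2 difference -1.31 ± 0.22 SE, limma adjusted p = 0.000886). Replicates 3 and 2 overlapped. Of the members with a mean below 6, those with a call between numbers are given by their means, a choice made after seeing the values. Ptprc averaged 5.17 ± 0.43, 4.22 ± 0.28 and 4.79 ± 0.19 in replicates 1 to 3 (mean ± SD, n = 4 each), and was lower in replicate 2 than in replicate 1 by -0.95 (limma adjusted p = 0.00303). Tlr2, the receptor for bacterial lipoproteins, averaged 5.55 ± 0.25, 4.95 ± 0.18 and 4.89 ± 0.30, and was lower in replicates 2 and 3 than in replicate 1 (-0.60 and -0.65; limma adjusted p = 0.0158 and 0.0118). Second probe sets of Cd53 and Ptprc, with means of 2.34 and 2.63, did not pass the filter. Mrc1, the mannose receptor of tissue macrophages, was dim throughout (3.41 to 4.99) and was not called.

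The other 7 members called by the F test were highest in replicate 3. C1qa, the A chain of C1q, stood at 7.69, 7.50, 7.45 and 7.54 in replicate 1, 7.96, 8.18, 8.42 and 8.79 in replicate 2 and 8.89, 9.47, 8.93 and 9.26 in replicate 3. The numbers did not overlap, and it was 3.02-fold higher in replicate 3 than in replicate 1 (log2 difference 1.59 ± 0.17 SE, limma adjusted p = 8.30e-05), with replicate 2 between them (0.79 ± 0.17, limma adjusted p = 0.00306). C1qc averaged 4.96 ± 0.04, 5.37 ± 0.31 and 5.51 ± 0.35. Its difference of 0.55 between replicates 3 and 1 passed (limma adjusted p = 0.0139) and ended without β4e replicate 1 (0.47, limma adjusted p = 0.0503). The 0.41 between replicates 2 and 1 (limma adjusted p = 0.0438) ended without any 1 of 8 arrays (eGFP replicate 2, β4a replicate 1, or any array of β4b or β4e), where the limma adjusted p ran from 0.0553 to 0.146. C1qb, the B chain, stood at 9.13, 8.81, 8.71 and 8.29 in replicate 1, 8.42, 8.72, 8.52 and 9.25 in replicate 2 and 8.40, 8.34, 8.45 and 8.52 in replicate 3. It differed from its partners: replicates 2 and 3 overlapped replicate 1, and no pair of numbers was called. Its 2 other probe sets were not called either, with replicate 3 minus replicate 1 differences of 0.12 and 0.32 against -0.31 for the one used here, so the direction for C1qb depends on the probe set.

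Csf1r stood at 6.36, 5.90, 5.97 and 6.04 in replicate 1, 5.79, 5.83, 6.15 and 6.19 in replicate 2 and 6.82, 6.88, 7.24 and 7.25 in replicate 3. All 4 arrays of replicate 3 lay above all others, and it was 1.97-fold higher in replicate 3 than in replicate 1 (log2 difference 0.98 ± 0.13 SE, limma adjusted p = 0.000375) and 2.08-fold higher than in replicate 2 (limma adjusted p = 0.000585). The 2 dimmer Csf1r probe sets had differences of 0.43 and 0.24 between replicates 3 and 1 (limma adjusted p = 0.00575 and 0.0657). Cx3cr1 averaged 4.31 ± 0.23, 4.64 ± 0.21 and 5.21 ± 0.18, higher in replicate 3 than in replicate 1 by 0.90 (limma adjusted p = 0.000955). The second Cx3cr1 probe set, below the filter, averaged 2.90, 2.88 and 2.88 and did not show this. Ly86 (MD-1), which binds a relative of the Toll-like receptors, averaged 4.67 ± 0.16, 4.80 ± 0.17 and 5.34 ± 0.22, and was also higher in replicate 3 (0.67 over replicate 1, limma adjusted p = 0.00108). Trem2 was higher in replicate 3 than in replicate 2 by 0.36 (limma adjusted p = 0.0127), close to the filter. It would not have passed the filter without its replicate 3 arrays (4.06 to 4.17), and its replicate 2 arrays were all below 4 (3.65 to 3.82). The call is therefore not independent of the filter. A second Trem2 probe set, which did not pass the filter, averaged 3.55, 3.96 and 3.79 and was highest in replicate 2. The direction for Trem2 thus depends on the probe set. Cd14, the co-receptor for endotoxin, stood at 6.93, 5.83, 6.38 and 6.46 in replicate 1, 5.69, 5.78, 6.06 and 5.93 in replicate 2 and 6.59, 7.35, 7.43 and 7.00 in replicate 3. It was 2.34-fold higher in replicate 3 than in replicate 2 (limma adjusted p = 0.0045), and the eGFP array of replicate 1 lay within the range of replicate 3.

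For Lyz2, Tyrobp and Ctss the calls between numbers turned on single arrays. Lyz2 was called higher in replicate 3 than in replicate 1 (log2 difference 0.54 ± 0.18 SE, limma adjusted p = 0.029), a call that ended without any 1 of 6 arrays (eGFP replicate 3, replicate 1 or 3 of β4a or of β4b, or β4e replicate 1; limma adjusted p from 0.0577 to 0.1). Tyrobp and Ctss were not called with all arrays (0.50 ± 0.21 and 0.47 ± 0.20; limma adjusted p = 0.0712 and 0.0831). Without eGFP replicate 1 both were, at 0.73 and 0.70 (limma adjusted p = 0.00738 and 0.00894).

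**Figure D3:**
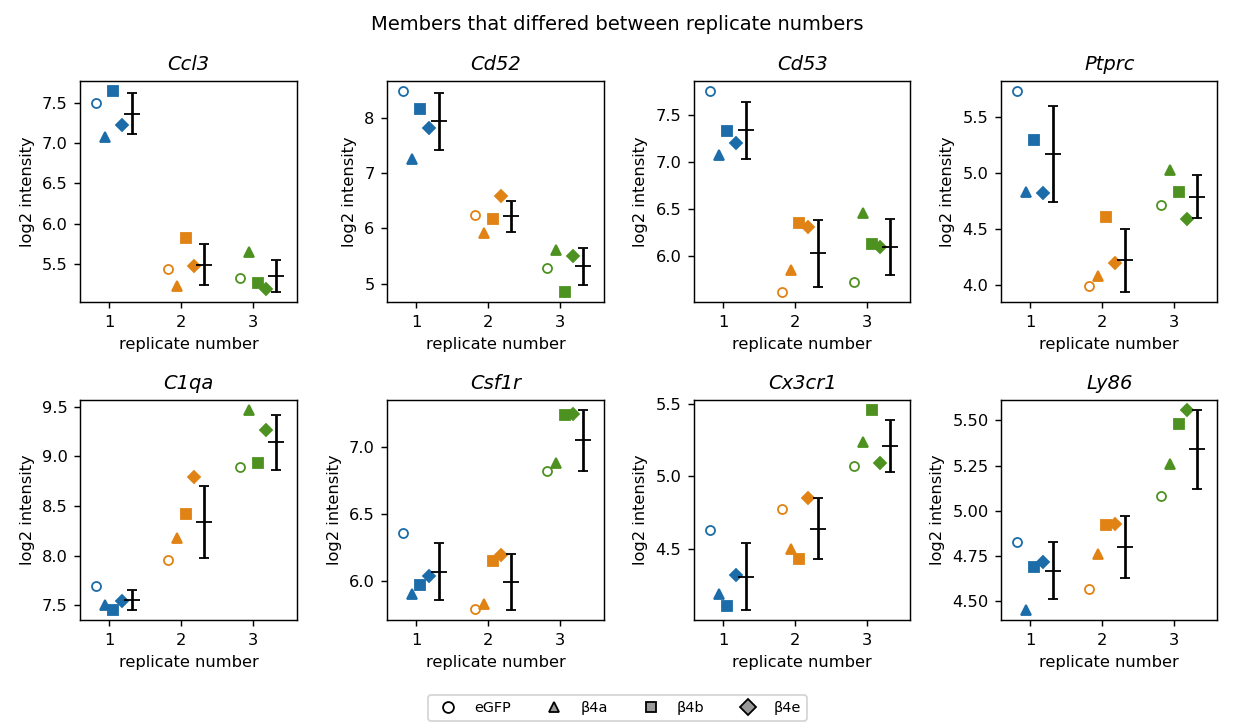
Level (log2 GCRMA intensity, vertical axis) of 8 members by replicate number, with shape for the virus and bars for mean ± SD over the 4 arrays of a number. Ccl3, Cd52 and Cd53 in replicate 1 lie above all other arrays, while C1qa, Csf1r and Ly86 are highest in replicate 3, where C1qa averaged 9.14 against 7.55 in replicate 1.

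Further macrophage lists, which hold no member, were counted in the same way, beside a background for replicate 3 minus replicate 1 of 19.8% higher and 28.5% lower. Of 14 Fc and phagocytic receptor and oxidase genes with a probe set, 12 were tested, and 1 was higher and 4 lower in replicate 3 than in replicate 1. Cd36, a scavenger receptor for lipids, averaged 7.51 ± 0.49, 5.06 ± 0.22 and 4.98 ± 0.21 in replicates 1 to 3 (mean ± SD, n = 4 each; limma adjusted p = 3.44e-05 over the numbers). Marco, a scavenger receptor of macrophages, averaged 5.76 ± 0.35, 4.49 ± 0.23 and 3.83 ± 0.24 (limma adjusted p = 0.000123). Both were highest in replicate 1, as was the dim Axl, a receptor for dying cells (4.53 ± 0.07, 4.28 ± 0.20 and 4.05 ± 0.30), while the IgG receptor Fcgr1 was lowest there (4.04 ± 0.11, 4.32 ± 0.08 and 4.32 ± 0.11).

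Of 11 complement genes outside C1q, 7 were tested, and 1 was higher and 4 lower in replicate 3 than in replicate 1. The proteases C1ra and C1s1, which join C1q in the C1 complex, averaged 4.91 ± 0.36, 3.62 ± 0.28 and 3.32 ± 0.21, and 4.57 ± 0.22, 3.95 ± 0.20 and 3.40 ± 0.26 (limma adjusted p = 6.40e-05 and 0.000754). Both had means below 4 in replicates 2 and 3 and would not have passed the filter without replicate 1. Their place among the lower genes is therefore not independent of the filter. C3ar1, the receptor for C3a, averaged 6.90 ± 0.34, 5.66 ± 0.27 and 6.23 ± 0.15 (limma adjusted p = 0.00141). Cfp (properdin), which stabilizes the alternative pathway convertase, was the higher one, at 8.51 ± 0.64, 8.59 ± 0.38 and 9.49 ± 0.29 (limma adjusted p = 0.0012).

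Of 13 lysosomal genes, all tested, 7 were lower in replicate 2 than in replicate 1 (background 29%) and 5 higher in replicate 3 than in replicate 2 (background 15.7%). Hexa, a subunit of β-hexosaminidase, averaged 9.48 ± 0.30, 8.64 ± 0.19 and 9.73 ± 0.25, and Gusb, β-glucuronidase, 6.82 ± 0.29, 5.58 ± 0.42 and 6.16 ± 0.27. Grn, progranulin, averaged 11.88 ± 0.08, 11.34 ± 0.23 and 11.65 ± 0.11, and Ctsd, cathepsin D, 10.98 ± 0.20, 11.01 ± 0.18 and 11.49 ± 0.13. Neurons and astrocytes use these genes too.

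Of 12 border and perivascular macrophage genes 6 were tested, and 4 were lower and 0 higher in replicate 3 than in replicate 1. The lectins Clec10a (4.15 ± 0.30, 3.28 ± 0.25 and 3.23 ± 0.13) and Mgl2 (4.87 ± 0.19, 4.67 ± 0.21 and 4.21 ± 0.12) were dim. Clec4n (Dectin-2), a receptor for fungal mannan, averaged 8.41 ± 0.22, 8.07 ± 0.39 and 7.18 ± 0.45 (limma adjusted p = 0.00584), and Ms4a7 4.52 ± 0.25, 4.07 ± 0.25 and 4.92 ± 0.49. Cd163 and Lyve1, which define such macrophages, had means of 2.78 and 2.73.

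Of 29 other myeloid surface and signalling genes 12 were tested, with 1 higher and 1 lower in replicate 3 than in replicate 1. The lower one was Csf2rb, the common β chain of the GM-CSF receptor (8.18 ± 0.45, 7.70 ± 0.40 and 6.90 ± 0.44), and the higher one Nckap1l, a regulator of actin in blood cells (4.51 ± 0.10, 4.56 ± 0.19 and 4.93 ± 0.20). Coro1a, an actin-binding protein of leukocytes, was highest in replicate 2 (9.74 ± 0.22, 10.48 ± 0.13 and 9.94 ± 0.01; limma adjusted p = 0.000357).

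Of 15 genes of activated or lipid-associated microglia 10 were tested, with 0 higher and 4 lower in replicate 3 than in replicate 1. Besides the chemokine Ccl2 and Axl, the galectin Lgals3 (11.04 ± 0.22, 10.92 ± 0.36 and 10.21 ± 0.42) and the fatty acid binder Fabp5 (13.42 ± 0.07, 13.04 ± 0.14 and 13.02 ± 0.10) were lower, while the protease inhibitor Timp2 was lowest in replicate 2 (11.23 ± 0.36, 10.12 ± 0.27 and 11.24 ± 0.14). Of 9 further myeloid transcription factors 3 were tested: Cebpb was lower (9.82 ± 0.14, 8.79 ± 0.30 and 8.71 ± 0.46) and Maf higher (8.92 ± 0.47, 9.26 ± 0.23 and 9.71 ± 0.42) in replicate 3 than in replicate 1. Of 8 antigen presentation genes 1 was tested, B2m, the light chain of MHC class I, which was lower (12.33 ± 0.06, 12.06 ± 0.34 and 11.74 ± 0.34). Against eGFP, 0 genes of any of these lists were called for any variant by limma, with or without the block.

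Signals that act on microglia were also measured. Of 15 such genes 11 were tested, and 6 were lower in replicate 2 than in replicate 1 (background 29%). Ccl2, a chemokine that draws monocytes, averaged 8.30 ± 0.21, 6.76 ± 0.21 and 5.65 ± 0.45 in replicates 1 to 3 (limma adjusted p = 2.30e-05). Cd47, Cd200 and Sirpa, of pairs that restrain phagocytes, averaged 13.14 ± 0.29, 12.19 ± 0.11 and 12.72 ± 0.08, then 9.74 ± 0.15, 8.90 ± 0.23 and 9.39 ± 0.15, and 11.91 ± 0.14, 11.52 ± 0.13 and 12.07 ± 0.05. These 3 were lowest in replicate 2. Csf1, Cx3cl1 and Il34 are given because their receptors are members. Csf1, a ligand of Csf1r, averaged 8.40 ± 0.35, 7.89 ± 0.34 and 7.63 ± 0.49 (limma adjusted p = 0.0193), so that it was lowest where Csf1r was highest. Cx3cl1, the ligand of Cx3cr1, averaged 4.51 ± 0.25, 4.40 ± 0.15 and 4.52 ± 0.45 and was not called. Il34, the other ligand of Csf1r, had a mean of 2.90, below the filter.

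Markers of other cell types were set beside the members. The 15 astrocyte and Bergmann glia markers differed from eGFP, as the mean of the 3 variants, by medians of -0.20, 0.70 and 0.80 in replicates 1 to 3, with 12, 1 and 0 of 15 below eGFP. This is the sign of the members (medians -0.30, 0.25 and 0.17) in each number. Their mean level ran from 8.62 to 9.55 over the eGFP arrays, 9.19 to 9.92 with β4a, 9.33 to 10.28 with β4b and 9.28 to 9.57 with β4e, and 1 of 15 had a mean below 4. The 13 lysosomal genes (-0.17, 0.25 and 0.32) and the 14 Fc and phagocytic receptor genes (-0.25, 0.20 and 0.16) had these signs too. The 13 granule neuron markers had medians of -0.07, -0.20 and -0.11, with mean levels between 12.75 and 13.03 in all arrays. For the 14 oligodendrocyte markers the medians were 0.07, 0.18 and 0.03, and for the 11 fibroblast and meningeal markers 0.00, -0.02 and 0.14. Endothelial and pericyte markers were at background, with 11 of 11 means below 4. Between numbers, 10 of 13 tested oligodendrocyte markers and 5 of 10 fibroblast markers were lower in replicate 3 than in replicate 1 (background 28.5%). In the same contrast 0 oligodendrocyte and 2 fibroblast markers were higher (background 19.8%). Of 14 tested astrocyte markers, 1 was higher and 1 lower. The part of these other cell types in the members' differences was not tested.

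**Figure D4:**
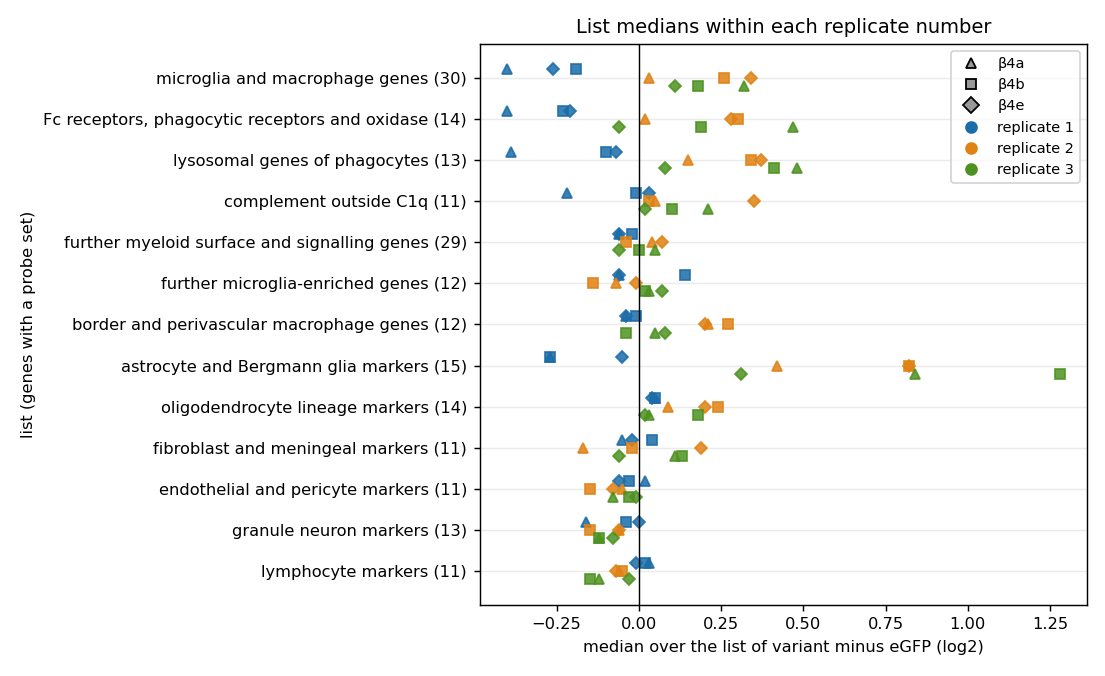
Median over each list of the difference between a variant array and the eGFP array of the same replicate number (log2, horizontal axis), with colour for the replicate number, shape for the variant and the number of genes in brackets. The 30 members and the astrocyte markers lie below 0 in replicate 1 and above 0 in replicates 2 and 3, the members with β4a in replicate 2 only at 0.03. The lymphocyte and endothelial lists, whose genes are at background, lie between -0.15 and 0.03.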

How the data were processed

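RNA of 12 cultures was measured on Affymetrix 3′ arrays. The values used are the deposited log2 intensities, which the authors made with GCRMA per the submitters' processing notes; its version and settings are not given in the sources used here, and GCRMA's background model compresses differences of dim probe sets. Array number limits the precision, since arrays give no read depth. Probe sets were named through the platform annotation, and 64 control probe sets were left out. The 23044 of 45101 probe sets above 4 in at least 3 arrays were tested with limma 3.58.1 in R 4.3.3 (lmFit, eBayes, Benjamini-Hochberg adjustment). The model with the block was also run on data simulated from the means and variances of these probe sets. The simulated group changes held no shared effect of the replicate number, and group contrasts without a block were not simulated. Group contrasts had no block, and contrasts of replicate numbers had the group as a covariate. Same-numbered arrays correlated at 0.699 to 0.884 in their deviations from the group means, in 18 of 18 pairs, and the numbers come from the sample titles, so values with that number blocked are given beside the others. Alternatives were the block, other filters, quantile normalization, an intensity trend, no moderation, the mean of a gene's probe sets and leaving out each array. Members and lists were chosen with earlier results of these data known. Every member is accounted for; values per array are given for the 13 with a mean above 6, and of other lists up to 4 genes with the smallest F p are named, or else up to 2 of highest mean; Csf1, Cx3cl1, Il34, Cd163, Lyve1 and the dim microglia markers were added after seeing the values. Promoters are those of RefSeq, GRCm38.p6.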

Additional observations from a re-analysis of the deposited data

Results flagged for a closer look

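In 5 of 90 sets of 4 arrays with 1 replicate number, 1 array lay apart from the other arrays of its number by more than Dixon's 95% critical value; chance gives about 1 in 20. Mrc1 stood at 4.99 with eGFP in replicate 1 (the others 3.95 to 3.99) and at 3.80 with β4e in replicate 3 (4.15 to 4.20). Tlr2 stood at 5.21 with β4e in replicate 2 (4.85 to 4.88), and Trem2 at 3.65 with eGFP in replicate 2 (3.80 to 3.82). P2ry12, at background in every array, stood at 2.65 with β4b in replicate 1 (2.42 to 2.45).

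The median difference of the 30 members from eGFP had opposite signs in replicate 1 and in replicates 2 and 3. For β4a it was -0.40, 0.03 and 0.32 in replicates 1 to 3, for β4b -0.19, 0.26 and 0.18, and for β4e -0.26, 0.34 and 0.11. The 0.03 of β4a in replicate 2 equalled the median over all tested probe sets. The difference in sign between numbers was not tested, since each number holds 1 array of a kind, and all 3 variants share the eGFP array of their number.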

How the results depend on the processing

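No member was called against eGFP or between variants under any alternative. Over all probe sets the replicate block, for which the numbers pair the arrays, called 3 for β4a, 3 for β4b and 5 for the mean of the variants (0 without it), and replicates 2 and 3 alone with the replicate block, a choice made after seeing the data, called 1, 3 and 1; the block changed no other call. With a filter above 6, which tests fewer probe sets, members called were 4, 7 and 4 (replicate 2 minus 1, 3 minus 1, 3 minus 2) and 6 by the F test, and probe sets 8001, 7094 and 9881 for the first pair, the next pair and the F test. This filter also tests fewer members (13 had a mean above 6), and shares of those tested are not given. The lower counts therefore do not show that fewer of the tested members differed. Leaving out 1 array gave 5 to 9, 9 to 15, 5 to 11 and 11 to 18 members and 10489 to 12007, 9372 to 10836, 5275 to 7875 and 13557 to 14691 probe sets, and 0 to 0 for each variant contrast. Differences that changed sign were none of them called: Csf1r, replicate 2 minus 1, was 0.04 with the mean of its probe sets and -0.17 to 0.09 on leaving out 1 array. On leaving out 1 array Tyrobp ran from -0.25 to 0.18 and Ctss from -0.29 to 0.12 for the same pair, and Ccl3 from -0.32 to 0.00 and Cd53 from -0.12 to 0.20 for replicate 3 minus 2. The call for Cx3cr1 between replicates 3 and 2 ended without β4a replicate 3 or β4b replicate 2 (0.52 and 0.50; limma adjusted p = 0.0553 and 0.0574). The cause was not tested. With 3 arrays per group, small differences of dim probe sets are not detectable.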

Other observations

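Of 13 cell cycle genes with a probe set, 7 were tested. By limma 4 of these were lower in replicate 3 than in replicate 1 (background 28.5%) and 0 higher (background 19.8%). Cdc20, which activates the anaphase-promoting complex, averaged 5.80 ± 0.21, 4.92 ± 0.18 and 5.45 ± 0.28 in replicates 1 to 3, and Rrm2, a subunit of ribonucleotide reductase, 6.72 ± 0.20, 5.01 ± 0.29 and 6.06 ± 0.49. The replication helicase subunits Mcm5 and Mcm2 averaged 6.33 ± 0.31, 5.69 ± 0.38 and 5.61 ± 0.02, and 4.42 ± 0.20, 4.38 ± 0.20 and 4.06 ± 0.12. Kit, a receptor of mast cells that cerebellar interneurons also use, averaged 7.43 ± 0.14, 4.93 ± 0.35 and 6.63 ± 0.27 in replicates 1 to 3 (mean ± SD, n = 4; limma adjusted p = 1.65e-05).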
